A study of Mus musculus with 24 samples.

Results

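The Nduf genes code for nuclear-encoded subunits of respiratory complex I and for a family of its assembly factors. Every row of the deposited count table whose symbol starts with Nduf was taken, which gave 46 of 24091 genes. Of these, 36 are complex I subunits and 8 are assembly factors, Ndufaf1 to Ndufaf8. The other 2 rows, Ndufa4 and Ndufa4l2, were kept apart, because the protein of Ndufa4 is now placed in complex IV and Ndufa4l2 is its paralog. The choice used gene names only and no measured value. The 7 mitochondrially encoded complex I subunits and Ndufb1, of the distal membrane arm, were not analysed here.

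LSKs, the lineage-negative Sca-1+ c-Kit+ bone marrow cells that hold the hematopoietic stem and early progenitor cells, were profiled by bulk RNA-seq, with 1 library from each of 24 mice. The 4 groups, each of 3 female and 3 male mice on the C57BL/6 (B6) background, were normal miR-142+/+ mice (WT), miR-142-/- mice (miR-142 KO), miR-142+/+ mice carrying BCR-ABL (CP CML) and miR-142-/- mice carrying BCR-ABL (BC CML). BCR-ABL, the fusion kinase of chronic myeloid leukemia (CML), was expressed in the last 2 groups under a tetracycline-off system driven by the SCL promoter, and those LSKs were taken 2 weeks after tetracycline withdrawal. BC CML mice came from crossing BCR-ABL mice with miR-142-/- mice, and the sources used here do not restrict the deletion to LSKs. In this model CP CML mice do not pass into blast crisis by themselves, and BC CML names the disease of mice without miR-142 rather than a later stage of the same mice. The ages of these mice were not given in the sources used here.

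Complex I takes electrons from NADH, passes them to ubiquinone and pumps protons across the inner mitochondrial membrane, which makes it the main entry point of the respiratory chain. Its N module binds and oxidises NADH, its Q module carries the electrons through iron-sulfur clusters to ubiquinone, and its membrane arm, with a proximal and a distal part, moves the protons. Assembly factors help to build and join these modules and are not part of the finished enzyme. Normal long-term hematopoietic stem cells are known to rely on glycolysis more than their dividing progeny do.

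The libraries held 16267965 to 24687077 counts each, and 0 pairs of libraries held identical values. The Mir142 row held 0 counts in all 12 libraries from mice without miR-142, where a count of 0 allows up to 3 counts, against 3.22 to 6.68 normalised counts (CPM, scaled by TMM factors) in WT and CP CML libraries. Kit was at 662 to 1240 CPM and Ly6a, the gene of Sca-1, at 30.7 to 155 CPM over all libraries, whereas Ly6g, a neutrophil gene, did not pass 0.164 CPM and Cd3e, a T cell gene, did not pass 4.06 CPM. Among other genes of mature lineages, Itgam, a myeloid gene, was at 54.2 to 117 CPM and Cd4 at 2.45 to 20.7 CPM. The third miR-142 KO library, from a female mouse, stood apart from its group: it was the highest of the 6 miR-142 KO libraries for 31 of 36 subunits, and its summed neutrophil-primed progenitor markers were 2762 CPM against 6175 to 7531 CPM in the other 5. The main counts of subunits and assembly factors in comparisons of the miR-142 KO group are therefore given with and without it. Without it all pairs of groups were fitted again over 13616 genes, and the counts of groups that do not overlap were added after seeing the data.

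Marker lists of 13 cell types and states were followed, and members of several moved between the groups. The summed level of 5 neutrophil-primed progenitor genes ran from 1247 to 4842 CPM in WT LSKs and from 2762 to 7531 CPM in miR-142 KO LSKs, and from 4482 to 7642 CPM in CP CML LSKs and from 5830 to 8560 CPM in BC CML LSKs. Of the 5, 3 rose in BC CML against CP CML LSKs and 5 rose in miR-142 KO against WT LSKs. Of 6 mast cell or basophil genes, 3 rose in BC CML against CP CML and 5 in miR-142 KO against WT LSKs, with sums of 261 to 780 CPM in WT LSKs, 429 to 2974 CPM in miR-142 KO LSKs, 1323 to 2360 CPM in CP CML LSKs and 3438 to 7132 CPM in BC CML LSKs. Of 7 hematopoietic stem cell genes, 5 fell and 1 rose in both of these comparisons, and their sum went from 529.8 to 1086 CPM in WT to 201 to 318 CPM in BC CML LSKs. Of 6 cell cycle genes, 2 rose in BC CML against CP CML and 1 rose in miR-142 KO against WT LSKs. All 4 plasma cell genes fell in both comparisons of miR-142, with sums of 57.3 to 977 CPM in WT LSKs, 3.23 to 16.03 CPM in miR-142 KO LSKs, 152 to 769.8 CPM in CP CML LSKs and 2.85 to 14.4 CPM in BC CML LSKs. In miR-142 KO against WT LSKs 5 of 5 tested megakaryocyte genes and 5 of 8 mature neutrophil genes rose, and 4 of 6 marrow macrophage genes fell. In BC CML against CP CML LSKs 3 of the 8 mature neutrophil genes fell. In BC CML against miR-142 KO LSKs 6 of the 8 mature neutrophil genes fell and 2 rose, and 4 of 6 erythroid and 4 of the 5 megakaryocyte genes fell. In CP CML against WT LSKs 5 of the 6 erythroid genes fell, as did 6 of the 7 hematopoietic stem cell genes, and all 5 neutrophil-primed progenitor genes rose. No listed marker in the table was at 0 in all libraries. Their part in the complex I levels was not tested, and in bulk samples a change in the share of a cell type and a change in RNA per cell cannot be told apart.

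Of the 46 genes, 45 passed the filter on low counts, and 13520 genes in all were tested. All 36 subunits and all 8 assembly factors were among them. Levels of different genes were compared as RPKM, here the mean CPM over 24 libraries divided by the gene length in kilobases that the table gives. On this scale the subunits spanned 5.59 to 107 RPKM with a median of 53.3, and the assembly factors spanned 4.37 to 26.8 RPKM with a median of 12.2. The 7 nuclear-encoded core subunits, which are conserved from bacteria, had a median of 60.7 RPKM against 51.1 for the 29 accessory subunits. Ndufb10, of the distal membrane arm, was the highest subunit at 107 RPKM, and Ndufa11, of the proximal arm, was the lowest at 5.59 RPKM. These values depend on the length used. The table gives 3.393 kb for Ndufa11, 3.096 kb for Ndufaf5 and 2.824 kb for Ndufaf6. Their longest coding transcripts in GENCODE M21 hold 918, 1166 and 1082 bases. For Ndufc1 (0.41 kb against 1249 bases) and Ndufb2 (0.451 kb against 4371 bases) the table gives the shorter length. The RPKM and ranks of these genes are therefore uncertain. The order of the subunits hardly differed between groups, with a Spearman rho of at least 0.972 over the 36 subunits for every pair of group means. Ndufa4, at 269 RPKM, stood above every subunit of complex I.

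**Figure D1:**
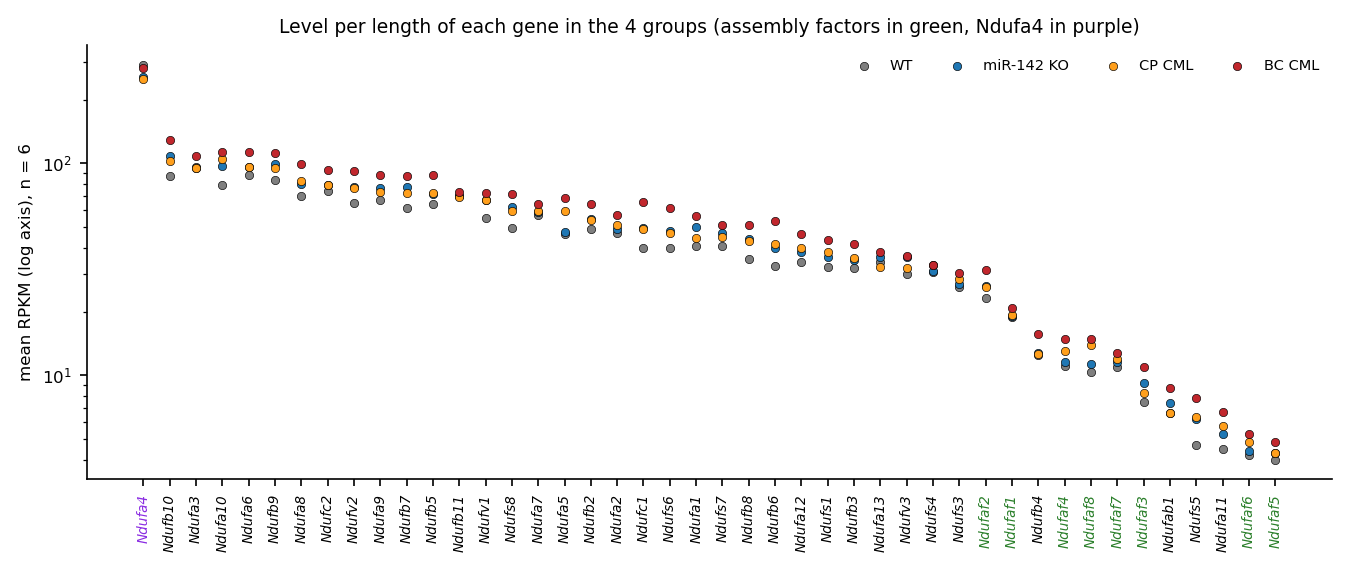
Mean RPKM of each of 44 Nduf genes on a log axis, 1 point for each of the 4 groups (n = 6 mice each), ordered by the mean over 24 libraries. Most subunits lie above the assembly factors (green labels), with Ndufa11 at 5.59 and Ndufs5 at 6.28 RPKM among the low exceptions, and the BC CML point is the highest of the 4 for every subunit shown. The low values of Ndufa11, Ndufaf5 and Ndufaf6 depend on the gene lengths listed in the count table.

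Ndufs5 (6.28 RPKM), Ndufab1 (7.34 RPKM) and Ndufb4 (13.4 RPKM) share sequence with near-identical copies: 19.7% of the read-length windows of the Ndufs5 transcript, 9.44% of those of Ndufab1 and 33.3% of those of Ndufb4 also occur in another annotated gene, a pseudogene or a copy such as BC002163 for Ndufs5. The levels of these 3 genes are therefore uncertain. Among the other subunits over 10% of windows were shared for Ndufb6 (28.1%), Ndufa13 (23.9%), Ndufs3 (19.6%), Ndufa12 (17.6%), Ndufb9 (16.9%) and Ndufb5 (11.9%). No strand setting of the counting was given, so reads from overlapping genes on the other strand cannot be told apart.

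Most subunits followed 1 order of levels across the 4 groups. The mean CPM was highest in BC CML LSKs for 36 of 36 subunits and lowest in WT LSKs for 33 of 36. Over all tested genes 31.9% had their highest mean in BC CML and 32.1% their lowest mean in WT LSKs. The combined order, BC CML highest and WT lowest, was met by 33 subunits and by 8 of 8 assembly factors, against 22.7% of all tested genes. These means include the third miR-142 KO library, and the order was not counted again without it. With 1 mouse left out, the lowest log2 fold change in miR-142 KO against WT was below 0 for some named members. These were Ndufs3 (-0.012), Ndufa5 (-0.052), Ndufaf1 (-0.036) and Ndufaf4 (-0.013). Their place in this order therefore depends on single libraries. The 3 subunits outside it were Ndufa3, Ndufa13 and Ndufb11, whose lowest mean fell in another group.

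Averaged over the 36 subunits, the level was 5.12 ± 0.108 log2 CPM (SD, n = 6) in WT LSKs, 5.30 ± 0.125 in miR-142 KO LSKs, 5.30 ± 0.0932 in CP CML LSKs and 5.54 ± 0.0722 in BC CML LSKs. The lowest, median and highest libraries were at 5.01, 5.10 and 5.29 in WT LSKs, at 5.21, 5.26 and 5.55 in miR-142 KO LSKs, at 5.17, 5.31 and 5.44 in CP CML LSKs and at 5.42, 5.58 and 5.60 in BC CML LSKs. The WT and BC CML ranges did not overlap, and the miR-142 KO and CP CML ranges overlapped each other and the WT range. The fourth CP CML library, at 5.44, lay above the lowest BC CML library. The highest miR-142 KO library reached into the BC CML range, and without it the highest of that group was at 5.31. The 8 assembly factors averaged 3.95 ± 0.102 log2 CPM in WT LSKs, 4.06 ± 0.120 in miR-142 KO LSKs, 4.12 ± 0.0673 in CP CML LSKs and 4.30 ± 0.0987 in BC CML LSKs.

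**Figure D2:**
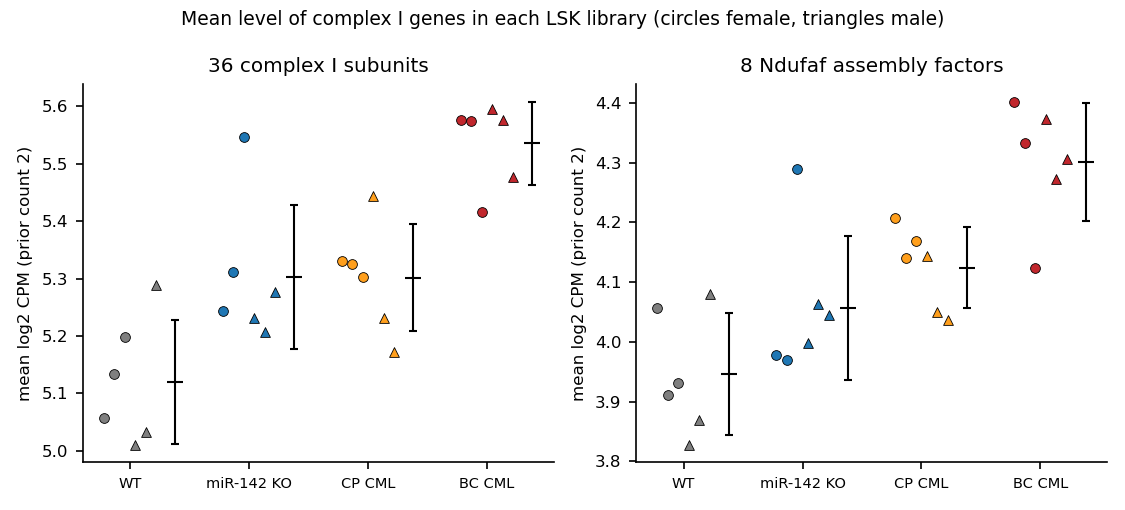
Mean log2 CPM (prior count 2) over 36 complex I subunits (left) and 8 Ndufaf assembly factors (right) in each of 24 LSK libraries by group, circles for female and triangles for male mice, with the group mean ± SD (n = 6) as bars. All 6 BC CML libraries lie above all 6 WT libraries in both panels, and 1 female miR-142 KO library, at 5.55 for the subunits, lies above the other 5 of its group.

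For 25 of 36 subunits the 6 BC CML libraries all lay above the 6 WT libraries, which held for 21.7% of all tested genes. The same was true of BC CML over CP CML LSKs for 13 subunits (11.4% of all tested genes), of CP CML over WT LSKs for 6 (11.9%), of miR-142 KO over WT LSKs for 5 (8.32%) and of BC CML over miR-142 KO LSKs for 2 (6.08%). Without the third miR-142 KO library BC CML lay wholly above miR-142 KO LSKs for 20 subunits and 3 factors (15.5% of all tested genes), in place of 2 subunits and 0 factors, and miR-142 KO above WT LSKs still for 5 subunits (10% of all tested genes). CP CML and miR-142 KO LSKs overlapped for all 36 subunits and all 8 assembly factors, where 6.42% of all tested genes lay wholly higher and 8.4% wholly lower in CP CML. Without that library 1 subunit and 1 factor lay wholly higher in CP CML, against 12.4% of all tested genes. No subunit was separated in the opposite direction in any of these pairs, with or without it, where the share of all tested genes over the 24 libraries was 17.6% for BC CML below WT, 9.28% for BC CML below CP CML, 9.87% for CP CML below WT, 6.14% for miR-142 KO below WT and 4.48% for BC CML below miR-142 KO.

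**Figure D3:**
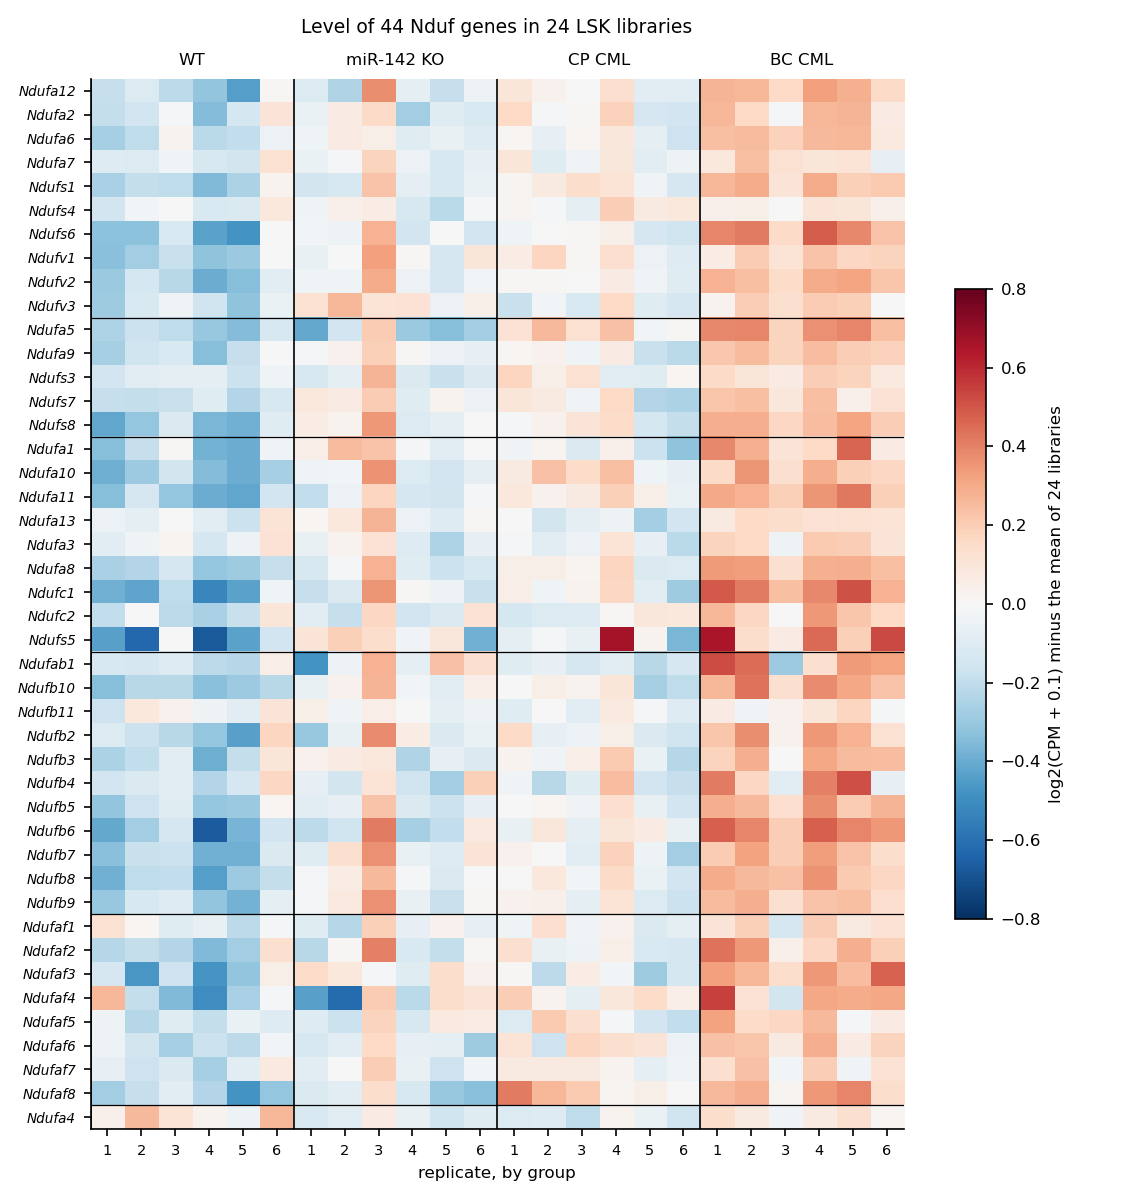
Level of 44 Nduf genes (rows, by module, then assembly factors and Ndufa4) in 24 LSK libraries (columns, by group and replicate), as log2(CPM + 0.1) minus the mean of the gene over the 24 libraries, with colours ending at 0.8 in either direction. Most rows run from blue in WT to red in BC CML, with miR-142 KO replicate 3 red among its group and the Ndufa4 row in the opposite sense between WT and the middle groups.

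Within a group, the subunits also varied together from mouse to mouse. The sixth WT library was the highest of its group for 26 of 36 subunits and the fourth CP CML library for 27, while the third BC CML library was the lowest of its group for 24 and the sixth CP CML library for 23. Among all other tested genes, the 10 whose log2 CPM followed the subunit mean most closely over the 24 libraries were Psmc3 and Psmc1, both of the proteasome, Cox6b1, Cox7b and Cox4i1, all of complex IV, Rps27l, Rer1, Nme1, Tmem14c and Snrpd1, with Pearson r of 0.970 to 0.986. With the group means removed, r for these 10 genes was 0.912 to 0.961. These values describe 24 libraries that share their depth and normalisation with the subunits, and no test was made.

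The comparison of BC CML with CP CML LSKs asks what the absence of miR-142 goes with in leukemic cells. Of the 36 subunits, 28 rose and 0 fell, and 8 did not pass the test (edgeR's quasi-likelihood test, Benjamini-Hochberg adjusted p below 0.05 over 13520 genes). Of all tested genes 20.4% rose and 17.6% fell in this comparison. The median log2 fold change of the subunits was 0.24, a 1.18-fold higher level, against 0.014 for all tested genes, and all 36 were above 0, as were 52.2% of all tested genes. Of the 8 assembly factors 2 rose, and their median log2 fold change was 0.15. Without the first or the fourth BC CML library 18 subunits passed. With upper quartile in place of TMM normalisation 19 subunits rose and 0 fell, and the share of all calls that were higher was 42.4% in place of 53.7%.

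Among the nuclear-encoded subunits tested, rises were found in every module. In the N module 6 of 10 subunits rose, in the Q module 5 of 6, in the proximal membrane arm 7 of 9 and in the distal membrane arm 10 of 11, with median log2 fold changes of 0.19, 0.22, 0.23 and 0.27. The 7 core subunits had 5 that rose and a median of 0.19, and the 29 accessory subunits had 23 that rose and a median of 0.25. Differences between modules were not tested.

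Ndufs6, a zinc-binding accessory subunit of the N module (chr13:73319876-73328482, mm10), was at 24.3, 26.9 and 28.1 CPM (lowest, median and highest library) in CP CML and at 30.3, 35.6 and 38.2 CPM in BC CML LSKs. The groups did not overlap. Its log2 fold change was 0.39 ± 0.0823 (SE), with an adjusted p of 0.000613. Ndufb10, of the distal membrane arm (chr17:24722067-24724388), was at 55.4, 67.1 and 71.3 CPM in CP CML and at 72.6, 81.2 and 89.8 CPM in BC CML LSKs, a log2 fold change of 0.34 ± 0.0661 (adjusted p = 0.000338). It also did not overlap between the groups and had the smallest adjusted p of the 45 Nduf genes in this comparison.

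Ndufv2, a core subunit of the N module that holds an iron-sulfur cluster (chr17:66078795-66101559), was at 117, 126 and 131 CPM in CP CML and at 139, 150.3 and 156 CPM in BC CML LSKs. All BC CML libraries were above all CP CML libraries, and the log2 fold change was 0.26 ± 0.0599 (adjusted p = 0.00162). Ndufa9, an accessory subunit of the Q module, had a log2 fold change of 0.26 ± 0.0559 (adjusted p = 0.000768), and Ndufa6, another accessory subunit, one of 0.24 ± 0.0535 (adjusted p = 0.000941). Ndufs8, Ndufs1 and Ndufs7, also core subunits with iron-sulfur clusters, rose by log2 0.26, 0.19 and 0.18. With upper quartile normalisation the adjusted p was 0.0570 for Ndufs1 and 0.0999 for Ndufs7, and with 1 mouse left out the call was lost in 6 of 24 fits for Ndufs1 and in 15 of 24 for Ndufs7. Ndufv1, which binds NADH and flavin, was at 0.12 ± 0.0676 (adjusted p = 0.178) and Ndufs3 at 0.098 ± 0.0650 (adjusted p = 0.240), and neither passed the test.

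Of the assembly factors, Ndufaf3, which works on the early Q module (chr9:108565865-108567342), was at 7.69, 8.89 and 9.79 CPM in CP CML and at 10.4, 11.6 and 13.1 CPM in BC CML LSKs. The groups did not overlap, and the log2 fold change of 0.40 ± 0.0906 (adjusted p = 0.00122) was above that of each core subunit. Ndufaf2, which acts late in assembly, rose by log2 0.28 ± 0.0976 (adjusted p = 0.0266). The other 6 factors did not pass, with log2 fold changes from 0.083 for Ndufaf8 to 0.18 for Ndufaf4 and standard errors from 0.0632 to 0.135. Only 1 factor passed without the CP CML libraries 3, 5 or 6 or the BC CML libraries 1, 2 or 5.

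**Figure D4:**
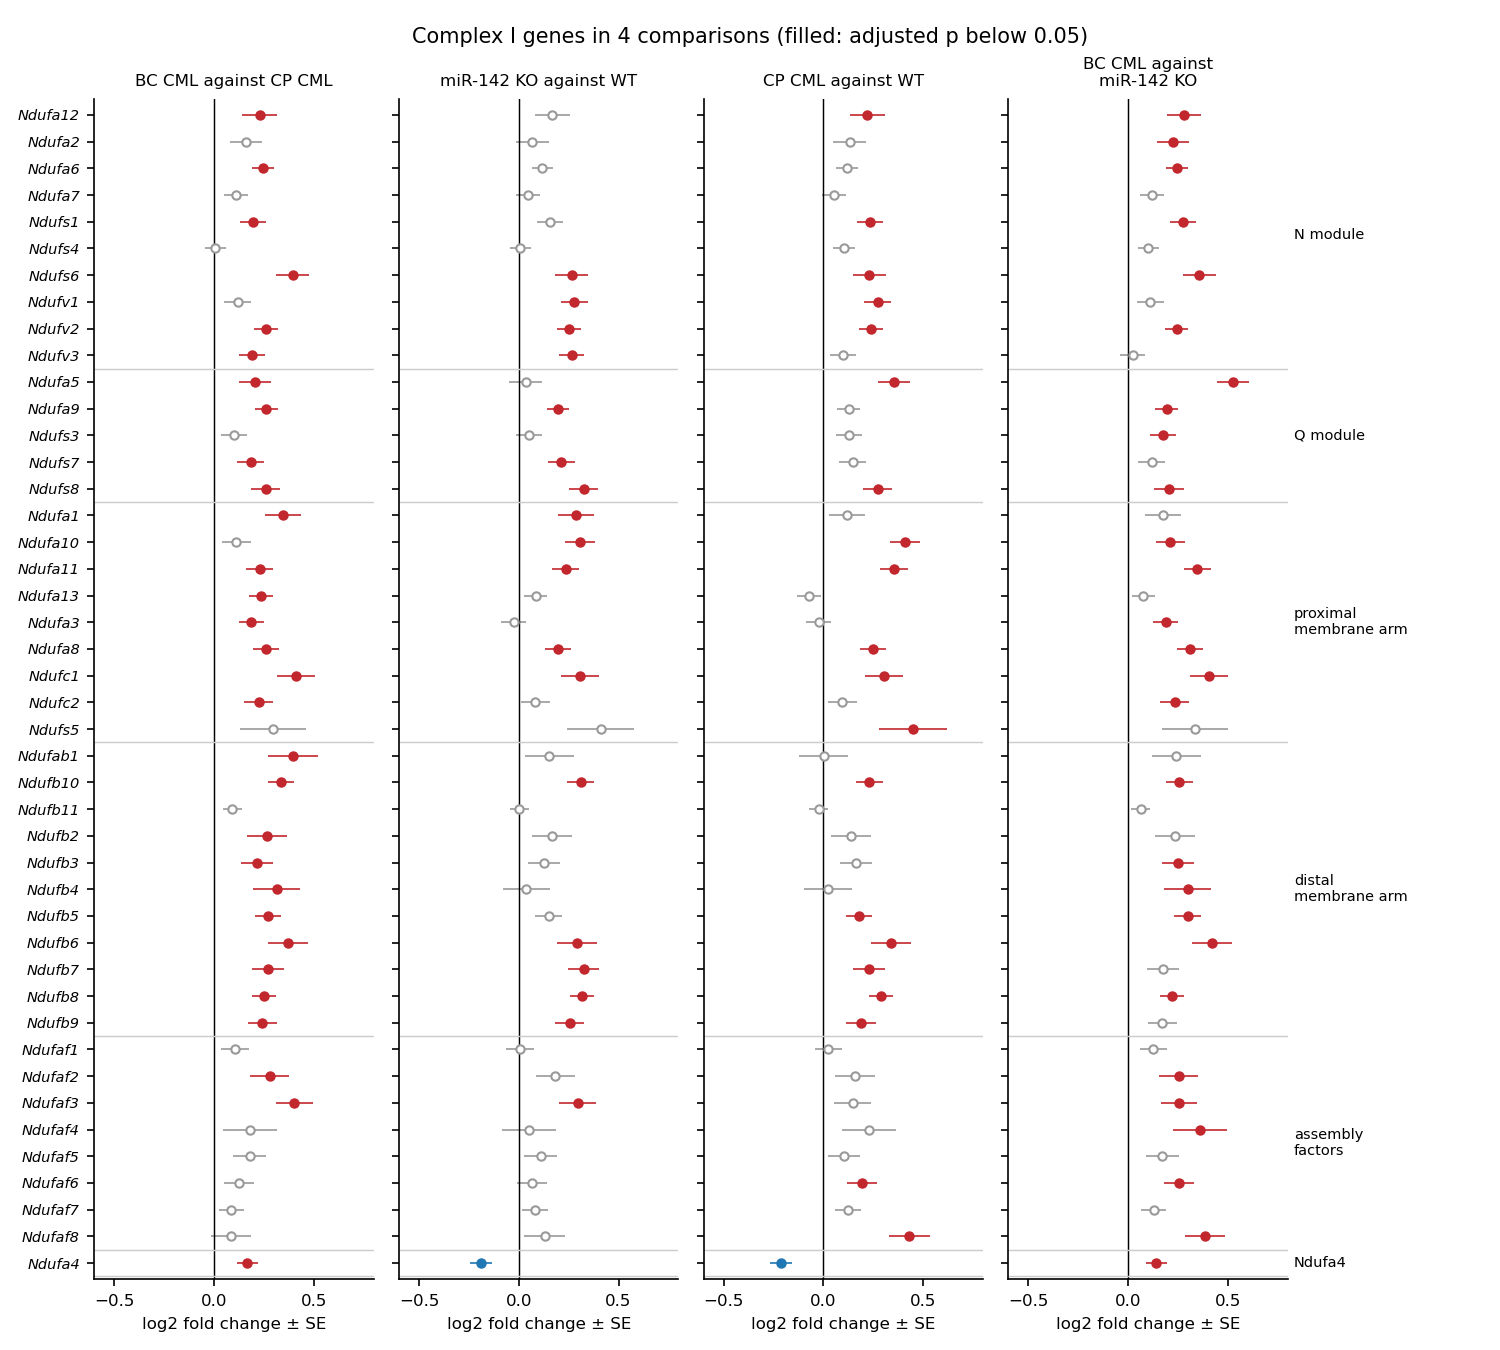
Log2 fold change ± SE of 44 Nduf genes in 4 comparisons, by module, filled where the adjusted p is below 0.05 (red higher, blue lower). In each comparison the subunits that passed the test lie to the right of 0, and Ndufa4 alone is blue, in miR-142 KO against WT and in CP CML against WT.

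In normal LSKs, miR-142 KO was compared with WT. Of the 36 subunits 18 rose, 0 fell and 18 did not pass the test, where 19.9% of all tested genes rose and 16.4% fell. The median log2 fold change was 0.20, against 0.0054 for all tested genes, and 35 of 36 were above 0, as were 50.9% of all tested genes. Without the third miR-142 KO library 17 subunits passed the test, against 19.0% of all genes tested then, and the median was 0.15. With upper quartile normalisation 16 subunits rose and 0 fell, while 42.0% in place of 54.7% of all calls were higher. Of the 8 assembly factors only Ndufaf3 rose, by log2 0.29 ± 0.0908 (adjusted p = 0.0136), and the median of the 8 was 0.095, or 0.060 without that library. Without the sixth WT library 2 factors passed.

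The subunits with the smallest adjusted p were Ndufb8, of the distal membrane arm (chr19:44548572-44555415), and Ndufb10. Ndufb8 was at 72.3, 82.8 and 86.1 CPM in WT and at 90.8, 98.0 and 118 CPM in miR-142 KO LSKs, and the groups did not overlap. Its log2 fold change was 0.32 ± 0.0602 (adjusted p = 0.000231). Ndufb10 was at 52.5, 55.6 and 57.0 CPM in WT and at 62.7, 66.7 and 80.2 CPM in miR-142 KO LSKs, again without overlap, a log2 fold change of 0.31 ± 0.0662 (adjusted p = 0.000794). The core subunits Ndufs8 (0.32), Ndufv1 (0.28), Ndufv2 (0.25) and Ndufs7 (0.21) rose on the log2 scale. Ndufv3 (0.26) and Ndufa10 (0.31), both accessory subunits, also rose. Ndufs1 was at 0.15 ± 0.0654 (adjusted p = 0.0673) and Ndufs3 at 0.051 ± 0.0651 (adjusted p = 0.567).

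CP CML against WT LSKs compares leukemic with normal cells that carry miR-142. Here 19 of 36 subunits rose and 0 fell, where 22.5% of all tested genes rose and 22.9% fell, and the median log2 fold change was 0.17 against -0.020 for all tested genes, with 33 subunits and 47.3% of all tested genes above 0. Ndufa10, of the proximal membrane arm (chr1:92439719-92473758), was at 88.8, 93.8 and 105 CPM in WT and at 112, 126 and 138 CPM in CP CML LSKs, with no overlap and a log2 fold change of 0.41 ± 0.0741 (adjusted p = 0.000143). Ndufa11 was at 14.0, 14.9 and 17.1 CPM in WT and at 18.0, 19.5 and 21.4 CPM in CP CML LSKs, also without overlap (0.35 ± 0.0683, adjusted p = 0.000261). Next by adjusted p came Ndufb8 (0.29), Ndufa5 (0.35), Ndufv1 (0.27) and Ndufv2 (0.24), as log2 fold changes. Of the assembly factors Ndufaf8, the partner of Ndufaf5, rose by log2 0.43 ± 0.102 (adjusted p = 0.00158) and Ndufaf6 by log2 0.19 ± 0.0752 (adjusted p = 0.0379). Ndufaf3, which rose in both comparisons of miR-142, was at 0.15 ± 0.0911 here (adjusted p = 0.195). Only 1 of the 8 factors passed without the WT libraries 3, 4 or 5 or the CP CML libraries 3, 4 or 5.

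BC CML against miR-142 KO LSKs asks the same question in cells without miR-142. Of the 36 subunits 23 rose and 0 fell, where 20.3% of all tested genes rose and 19.3% fell, with a median of 0.23 against -0.019 for all tested genes, with 36 subunits and 47.2% of all tested genes above 0. Either way 39.6% of all tested genes changed. Without the third miR-142 KO library 28 subunits passed the test, against 23.6% of all genes tested then, and the median was 0.26. Ndufa5, an accessory subunit of the Q module (chr6:24518664-24527687), was at 22.5, 24.5 and 34.4 CPM in miR-142 KO and at 33.7, 38.7 and 39.1 CPM in BC CML LSKs. Only the third miR-142 KO library reached into the BC CML range. The log2 fold change of 0.52 ± 0.0811 (adjusted p = 4.11e-05) was the largest of any subunit in the 4 comparisons. Between WT, at 25.4 ± 1.44 CPM (SD, n = 6), and miR-142 KO LSKs, at 26.0 ± 4.35 CPM, the log2 difference of Ndufa5 was 0.034 ± 0.0814 (adjusted p = 0.769 by edgeR). Next by adjusted p came Ndufa11 (0.35), Ndufa8 (0.31), Ndufa6 (0.24), Ndufb5 (0.30) and Ndufs6 (0.36).

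Of the 8 assembly factors 5 rose here: Ndufaf8 (0.38 ± 0.101, adjusted p = 0.00472), Ndufaf4 (0.36 ± 0.135, adjusted p = 0.0374), Ndufaf6 (0.26 ± 0.0750, adjusted p = 0.00947), Ndufaf2 (0.25 ± 0.0974, adjusted p = 0.0412) and Ndufaf3 (0.25 ± 0.0901, adjusted p = 0.0284). Of all tested genes 20.3% rose in this comparison. The median log2 fold change of the 8 was 0.25. Without the third miR-142 KO library 7 of the 8 rose, against 23.6% of all genes tested then. Leaving out each mouse in turn gave 2 to 7, with 2 or 3 without the miR-142 KO libraries 1, 2, 4 or 6 or the BC CML libraries 1, 4, 5 or 6. Ndufaf1, which builds the membrane arm intermediate, Ndufaf5, which hydroxylates Ndufs7, and Ndufaf7, a methyltransferase, did not pass in any of the 4 comparisons, with log2 fold changes from 0.0047 to 0.18.

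Across the 4 comparisons, which share their groups in pairs and are not independent, 10 subunits rose in all 4, among them Ndufa8, Ndufa11, Ndufb8, Ndufb10, Ndufs6, Ndufs8 and Ndufv2. Among all tested genes 4.20% did so. In both comparisons of miR-142 16 subunits rose, against 11.5% of all tested genes. Without the third miR-142 KO library these counts were 12 (4.24%) and 15 (11.2%). At the other end Ndufs4, Ndufa7 and Ndufb11 rose in none; these 3 were singled out after their values were seen. Ndufs4, which holds the N module in place, was on average at 47.1 CPM in WT LSKs, 47.4 CPM in miR-142 KO LSKs, 50.6 CPM in CP CML LSKs and 50.8 CPM in BC CML LSKs. The ratio of the BC CML to the WT mean CPM was 1.05 for Ndufb11, the lowest of the subunits, 1.33 at the median and 1.68 for Ndufs5, the highest, whose counts are low and partly shared with a copy.

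**Figure D5:**
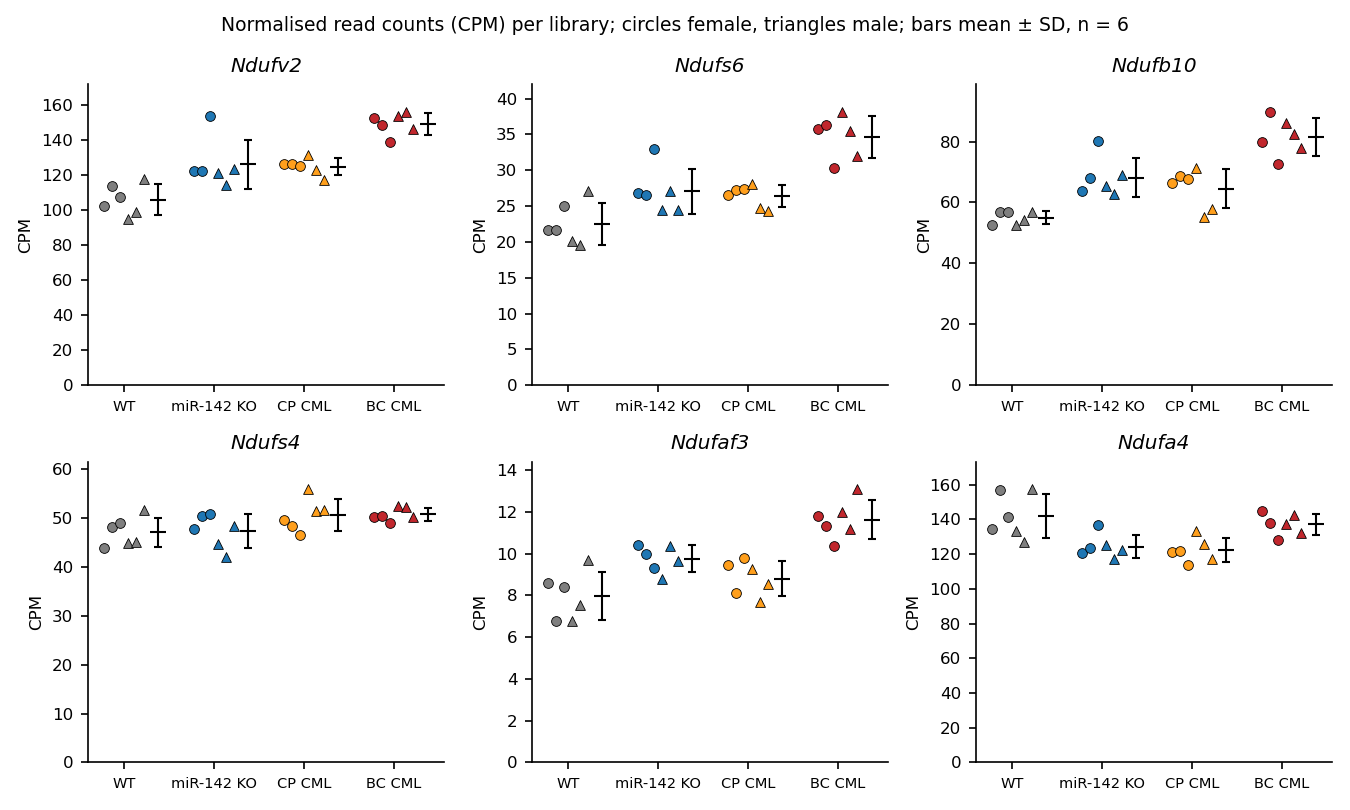
Normalised read counts (CPM) of 5 complex I genes and Ndufa4 in each library by group, circles for female and triangles for male mice, with the mean ± SD (n = 6). Ndufv2, Ndufs6, Ndufb10 and Ndufaf3 have all BC CML libraries above all CP CML libraries, Ndufs4 overlaps in all groups, and Ndufa4 is higher in WT and BC CML than in the 2 middle groups.

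The effect of miR-142 loss was then compared between leukemic and normal LSKs, as the BC CML minus CP CML difference less the miR-142 KO minus WT difference. None of the 36 subunits and 8 assembly factors passed this test with edgeR (0 called), where 3.99% of all tested genes passed, 1.91% higher and 2.08% lower. DESeq2 also called 0 of them. At an unadjusted p below 0.05 there were 1 subunit and 0 factors. The median difference was 0.059 for the subunits and 0.082 for the factors on the log2 scale, and 25 subunits and 7 factors were above 0, as were 49.7% of all tested genes. The standard errors of these differences, 0.0848 for Ndufv2 and 0.0935 for Ndufb10, limit the size of difference that could be detected in single genes.

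Ndufa4 (chr6:11900373-11907446), of complex IV, followed another order. It was at 127, 138 and 157 CPM in WT LSKs, at 117, 123 and 137 CPM in miR-142 KO LSKs, at 114, 122 and 134 CPM in CP CML LSKs and at 128, 138 and 145 CPM in BC CML LSKs (lowest, median and highest library). The middle groups lay below WT and BC CML on average, and every pair of groups overlapped. It fell by 0.19 on the log2 scale in miR-142 KO against WT (SE 0.0535, adjusted p = 0.00772) and by 0.21 on the log2 scale in CP CML against WT LSKs (SE 0.0536, adjusted p = 0.00263). It rose by log2 0.17 ± 0.0536 in BC CML against CP CML (adjusted p = 0.0173) and by log2 0.14 ± 0.0535 in BC CML against miR-142 KO LSKs (adjusted p = 0.0381).

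The effect of miR-142 loss on Ndufa4 differed between CML and normal LSKs by log2 0.35 ± 0.0757 (adjusted p = 0.00953), and no other Nduf gene passed that test. With any 1 mouse left out this difference was 0.30 to 0.37 and stayed past the threshold. Both falls also passed with any 1 mouse left out, whereas the rise against CP CML was lost in 7 of 24 such fits and the rise against miR-142 KO in 18 of 24. With upper quartile normalisation the rises were 0.12 (adjusted p = 0.0704) and 0.11 (adjusted p = 0.0969).

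Ndufa4l2, a paralog known from hypoxic cells, was below the filter in all groups, with 0 to 4 counts in each library, and its values allow no comparison.

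The counts were also taken within each sex, with 3 mice in a group. Among female mice 0 of 36 subunits passed in BC CML against CP CML LSKs, where 6.29% of all tested genes were called higher. Of the 36, 17 were at an unadjusted p below 0.05 and 35 above 0, with a median log2 fold change of 0.19. Among male mice 16 passed, 35 were above 0 and the median was 0.26, where 14.9% of all tested genes were called higher. In miR-142 KO against WT LSKs 12 passed among females (median 0.24) and 0 among males (median 0.13, 7 at an unadjusted p below 0.05 and 27 above 0), where 9.51% and 11.7% of all tested genes were called higher. In BC CML against miR-142 KO LSKs 0 passed among females (median 0.15, 10 at an unadjusted p below 0.05) and 22 among males (median 0.29), where 3.71% and 16.5% of all tested genes were called higher. In CP CML against WT LSKs 10 and 7 passed, where 12.8% and 14.3% of all tested genes were called higher. The third miR-142 KO library is 1 of the 3 females of its group. With the sexes in 1 fit, the difference of the effect between males and females passed for 0 of 45 Nduf genes in each of the 4 comparisons by edgeR, with at most 1 at an unadjusted p below 0.05, and for 0 or 1 of 13520 genes.

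A list of 18 symbols of assembly genes that do not carry the Nduf name was also followed. Of these symbols 14 were rows of the table, and all 14 were tested. The list holds older and newer names, so a symbol without a row need not be a gene that was not measured. Of the 14, 3 rose and 0 fell in BC CML against CP CML LSKs, where 20.4% of all tested genes rose, with a median log2 fold change of 0.12. Acad9, of the membrane arm assembly complex, rose by log2 0.23 (adjusted p = 0.000925), Timmdc1, another membrane arm factor, by log2 0.29 (adjusted p = 0.00308) and Tmem261 by log2 0.15 (adjusted p = 0.0414). In miR-142 KO against WT LSKs Acad9 (0.31) and Ecsit (0.38) rose, and Tmem186 (-0.36) and Lyrm2 (-0.24) fell, where 19.9% of all tested genes rose and 16.4% fell. Without the third miR-142 KO library 1 of the 14 rose and 2 fell in this comparison, against 19.0% and 14.4% of all genes tested then. In CP CML against WT LSKs Chchd4 (0.58), which imports intermembrane proteins, Ecsit (0.57) and Aifm1 (0.23) rose, and Lyrm2 (-0.23) fell, where 22.5% of all tested genes rose and 22.9% fell. Lastly, in BC CML against miR-142 KO LSKs, Chchd4 (0.61), Aifm1 (0.35) and Ecsit (0.38) rose and 0 fell, where 20.3% of all tested genes rose. Without the third miR-142 KO library 4 of the 14 rose and 1 fell there.

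Genes of the later parts of the respiratory chain also rose. Of 38 tested genes of complexes II to V, 28 rose in BC CML against CP CML, 21 in miR-142 KO against WT, 26 in CP CML against WT and 29 in BC CML against miR-142 KO LSKs, and 0 fell in each, with medians of 0.21, 0.20, 0.28 and 0.27. Of 77 tested genes of the mitochondrial ribosome 32, 20, 56 and 63 rose in the same order, with medians of 0.19, 0.13, 0.26 and 0.31, and 1 fell in CP CML against WT. Of all tested genes 20.4%, 19.9%, 22.5% and 20.3% rose in the same order. Without the third miR-142 KO library 13 genes of complexes II to V (34.2%) and 12 of the mitochondrial ribosome (15.6%) rose in miR-142 KO against WT LSKs, in place of 21 and 20. Of all genes tested then 19.0% rose, a larger share than in the mitochondrial ribosome. In the miR-142 comparisons the complex I subunits passed the test in 77.8% and 50% of cases, the genes of complexes II to V in 73.7% and 55.3%, and the mitochondrial ribosomal genes in 41.6% and 26.0%. The order of these lists depends on the third miR-142 KO library. Without it the shares that rose were 77.8% and 47.2%, 78.9% and 34.2%, and 49.4% and 15.6%. Differences between these lists were not tested. In 15 genes of NADH supply and other NADH oxidation 6 rose and 1 fell in BC CML against CP CML LSKs, the fall being that of Nnt, the nicotinamide nucleotide transhydrogenase, by 0.55 on the log2 scale (adjusted p = 0.000845). Among 10 regulators of nuclear-encoded respiratory genes Esrra, an orphan nuclear receptor, rose in all 4 comparisons (log2 0.29, 0.51, 0.43 and 0.20 in BC CML against CP CML, miR-142 KO against WT, CP CML against WT and BC CML against miR-142 KO LSKs), and Gabpb1 fell in all 4. The miR-142 effect on Esrra differed between CML and normal LSKs by log2 -0.23 (adjusted p = 0.0312 by edgeR). Ppargc1a fell in miR-142 KO against WT (log2 -1.58, adjusted p = 0.000333) and in CP CML against WT (log2 -1.15, adjusted p = 0.00389). Its means were 1.23 to 4.20 CPM. Ppargc1b fell in BC CML against CP CML (log2 -0.44, adjusted p = 0.00111) and rose in CP CML against WT (log2 0.38). Gabpa rose in CP CML against WT (log2 0.11), and Pprc1, Nrf1, Yy1, Tfam and Myc passed in none over the 24 libraries. Without the third miR-142 KO library 1 of the 10 regulators rose and 4 fell in miR-142 KO against WT, in place of 1 and 2. Of all genes tested then 19.0% rose and 14.4% fell. In CP CML against WT 4 rose and 3 fell without it, in place of 3 and 2, against 25.4% and 22.7% of all genes tested then.

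Transcript length also went with the fold changes over all genes. Genes up to 1 kb had a median log2 fold change of 0.099 in BC CML against CP CML and 0.050 in miR-142 KO against WT LSKs, and 24.3% and 17.3% of these 912 genes rose. Of the 36 subunits 24 fall in this class, where 19 and 9 rose, with medians of 0.25 and 0.16. Genes over 8 kb had medians of -0.046 and -0.032. The part of transcript length in the result was not tested.

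The promoters of the Nduf genes, whether or not they moved, were searched for 3 motifs of factors known for nuclear respiratory genes. The search covered both strands, from 250 bases before to 50 after the start in RefSeq (GRCm38.p6). A promoter was found for 40 of the 46 genes. The core of the NRF1 motif, CGCANGCG, was in 13 of the 40 (32.5%), against 18.9% of promoters of tested genes and 9.22% of all promoters. The YY1 motif ATGGCGG was in 10 (25.0%), against 9.14% and 4.69%, and the ETS motif CCGGAAG, bound by GABP, in 6 (15.0%), against 19.5% and 9.93%. Any of the 3 motifs was in 25 of the 40 (62.5%), against 39.2% of promoters of tested genes. A match of letters says nothing of binding. The promoter of Ndufs6, which rose in all 4 comparisons, holds an NRF1 and a YY1 match, that of Ndufs8, a core subunit which also rose in all 4, holds an ETS match, and that of Ndufa4, which fell in 2 comparisons, holds none of the 3. Of the 9 subunits that rose in all 4 comparisons and had a promoter, 6 held any of the 3 motifs, with none in Ndufb8, Ndufc1 and Ndufv2, and of the 3 that rose in none 2 did, Ndufa7 (NRF1 and YY1) and Ndufs4 (YY1). Capitals mark the matches.
Ndufs6, chr13:73328433-73328732, minus strand: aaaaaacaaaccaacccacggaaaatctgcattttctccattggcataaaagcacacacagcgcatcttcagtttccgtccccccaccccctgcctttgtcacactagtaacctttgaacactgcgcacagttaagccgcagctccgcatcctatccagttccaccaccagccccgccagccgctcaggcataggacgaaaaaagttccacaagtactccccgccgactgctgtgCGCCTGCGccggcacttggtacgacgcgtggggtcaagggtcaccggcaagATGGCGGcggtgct
Ndufs8, chr19:3912725-3913024, minus strand: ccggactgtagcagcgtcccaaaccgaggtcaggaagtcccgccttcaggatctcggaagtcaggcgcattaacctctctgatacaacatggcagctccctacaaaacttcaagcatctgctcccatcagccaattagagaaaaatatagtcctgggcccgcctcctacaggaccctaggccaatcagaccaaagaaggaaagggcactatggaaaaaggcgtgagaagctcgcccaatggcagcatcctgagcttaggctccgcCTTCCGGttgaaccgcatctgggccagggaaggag
Ndufa4, chr6:11907401-11907700, minus strand: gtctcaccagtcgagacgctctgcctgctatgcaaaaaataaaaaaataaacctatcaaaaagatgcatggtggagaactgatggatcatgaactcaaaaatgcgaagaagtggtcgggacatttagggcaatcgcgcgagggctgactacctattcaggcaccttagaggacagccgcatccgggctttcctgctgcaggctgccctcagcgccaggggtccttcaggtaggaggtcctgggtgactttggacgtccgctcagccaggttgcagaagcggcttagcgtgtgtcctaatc

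Because the design removes miR-142, the 3' untranslated regions of the members were also searched for the 7-base complement of its seeds. The 2 mature strands, from RefSeq (GRCm38.p6), are printed with the seed, bases 2 to 8, in capitals.
mmu-miR-142a-5p, chr11:87756867-87756887, plus strand: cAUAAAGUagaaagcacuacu
mmu-miR-142a-3p, chr11:87756903-87756925, plus strand: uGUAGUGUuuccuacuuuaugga
A site ACACTAC for mmu-miR-142a-3p was in 1 of the 46 genes, Ndufab1, the mitochondrial acyl carrier protein, against 7.34% of tested genes, and a site ACTTTAT for mmu-miR-142a-5p was in 1, Ndufaf4, against 16.5% of tested genes. The sites, in GENCODE M21 transcripts with the matched bases in capitals, read as follows.
Ndufaf4, chr4:24904897-24904903, plus strand: ttgctctgactACTTTATaaactactgtc
Ndufab1, chr7:122087907-122087913, minus strand: tagagcagtccACACTACaaatcagagaa
The Ndufab1 site lies outside the interval that the count table gives for the gene, chr7:122088044-122101848. Ndufab1, named for its site, rose by log2 0.40 ± 0.124 in BC CML against CP CML (adjusted p = 0.0141) and was at 0.15 ± 0.124 in miR-142 KO against WT LSKs (adjusted p = 0.345). Ndufaf4 was at 0.18 ± 0.135 (adjusted p = 0.304) and 0.049 ± 0.135 (adjusted p = 0.806) in the same comparisons. Of the 18 subunits that rose in miR-142 KO against WT LSKs, 0 have either site. Ndufab1 is the only subunit with a site at all, so this count cannot tell whether miR-142 acts on the subunits. The shares of tested genes with a site were not matched for the length of the 3' untranslated region.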

How the data were processed

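Poly(A) RNA of 24 LSK samples, each from 1 mouse, was sequenced in paired reads. According to the labels and the study's methods, the authors trimmed reads with Trimmomatic, aligned them to mm10 with STAR 2.6.0 and counted them per gene with HTSeq 0.11.1. The annotation and the strand setting are not given in the sources used here. The deposited values are raw counts, with gene coordinates and lengths.

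Groups and sex came from the labels. Counts were tested with edgeR 4.0.16 in R 4.3.3 (TMM normalisation, filterByExpr, quasi-likelihood F test over all 24 libraries, Benjamini-Hochberg adjustment over 13520 genes, threshold 0.05, two-sided). The standard error is the log2 fold change divided by the root of F. Alternatives were DESeq2 1.42.0, edgeR's likelihood ratio test, other normalisations and filters, 1 sex, only 12 libraries, an adjusted p of 0.01 and each mouse left out. The code was tested on simulated data. Plots used matplotlib 3.10.9.

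Values were given for the 7 nuclear core subunits, all assembly factors, the 6 members with the smallest adjusted p in each comparison, Ndufa4 and Ndufa4l2, and any member passing the difference of effects; others named were chosen after their values were seen. Values of 1 member, which enters the counts, are not reported here. The members and all gene lists were chosen with earlier results of these data known.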

Additional observations from a re-analysis of the deposited data

Results flagged for a closer look

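The third miR-142 KO library lay far from the other 5 of its group in 13 of the 14 cases in which a sample stood out by Dixon's criterion, among 112 groups of 6 examined. Chance gives about 1 in 20 for a single group. The 112 are genes and their means in the same 24 libraries, and they vary together. They are not independent, so the count of cases cannot be set against that rate. Its mean over the subunits was 5.55 log2 CPM and that over the assembly factors 4.29 log2 CPM. It was the highest of its group for Ndufs1 (183 CPM), Ndufs3 (31.4 CPM), Ndufs8 (77.7 CPM), Ndufv2 (154 CPM), Ndufb10 (80.2 CPM), Ndufs6 (33.0 CPM), Ndufa10 (149.7 CPM), Ndufa5 (34.4 CPM), Ndufa8 (73.1 CPM), Ndufb5 (85.4 CPM) and Ndufaf2 (23.7 CPM). The same library was below the other 5 in its summed stem cell (263 against 312 to 433 CPM), marrow macrophage (9.42 against 44.4 to 79.6 CPM) and erythroid markers (5.62 against 32.0 to 127 CPM) and above them in cell cycle genes (4183 against 3598 to 3809 CPM). Their part in its complex I level was not tested.

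The remaining case was the sixth WT library, the highest of its group for Ndufaf2 at 19.6 CPM.

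The effect of miR-142 loss on Ndufa4 differed between CML and normal LSKs, by log2 0.355 (adjusted p = 0.00953 by edgeR). The difference was 0.38 among female mice (adjusted p = 0.194) and 0.33 among male mice (adjusted p = 0.257), and neither sex passed alone.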

How the results depend on the processing

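The direction of every subunit and assembly factor that passed the test was kept in each alternative run. The counts of subunits that rose changed most with fewer mice. In the 1-sex fits fewer of all tested genes were called too, 3.71% to 12.8% higher in females and 11.7% to 16.5% in males over the 4 comparisons. The subunits that rose were 0 in females, 16 in males and 15 at an adjusted p below 0.01 in BC CML against CP CML, and 18 to 28 with each mouse left out. In miR-142 KO against WT they were 12 in females, 0 in males and 17 to 22 with each mouse left out. In CP CML against WT they were 10 in females, 7 in males, 11 at 0.01 and 14 to 23 with each mouse left out. In BC CML against miR-142 KO they were 0 in females, 14 at 0.01 and 16 to 28 with each mouse left out. The assembly factors that passed in BC CML against CP CML were 1 with upper quartile normalisation, 0 in females, 1 in males, 1 at 0.01 and 1 to 2 with each mouse left out. In miR-142 KO against WT they were 0 with only 12 libraries, in females, in males and at 0.01, and 1 to 2 with each mouse left out. In CP CML against WT they were 1 with the likelihood ratio test, upper quartile normalisation, no filter, only 12 libraries, either sex and at 0.01, and 1 to 3 with each mouse left out. For BC CML against miR-142 KO they were 2 with upper quartile normalisation, 3 with no filter, 3 with only 12 libraries, 0 in females, 2 in males, 2 at 0.01 and 2 to 7 with each mouse left out. In females the median difference of the miR-142 effects was -0.050 for subunits and -0.024 for factors.

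The log2 changes that turned were all of members that had not passed. Females gave -0.023 for Ndufs3 and -0.12 for Ndufaf8 in BC CML against CP CML. In miR-142 KO against WT, upper quartile normalisation gave -0.00062 for Ndufs3, -0.047 for Ndufaf1, -0.0033 for Ndufaf4 and -0.018 for Ndufa5, 12 libraries gave -0.0050 for Ndufaf1, females gave -0.058 for Ndufaf1 and -0.18 for Ndufaf4, and males gave -0.046 for Ndufs3, -0.010 for Ndufaf6, -0.0012 for Ndufaf7 and -0.052 for Ndufa5. In CP CML against WT, upper quartile normalisation gave -0.015 for Ndufaf1 and males gave -0.011 for Ndufaf5. In BC CML against miR-142 KO, upper quartile normalisation gave -0.012 and females -0.051 for Ndufv3. With each mouse left out Ndufs3 ran from -0.012 to 0.080, Ndufaf1 from -0.036 to 0.047, Ndufaf4 from -0.013 to 0.15 and Ndufa5 from -0.052 to 0.080 in miR-142 KO against WT, and Ndufv3 from -0.020 to 0.048 in BC CML against miR-142 KO. The cause was not tested, and fits of 1 sex hold 12 of 24 mice.

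No paired analysis was possible because the replicate numbers were given in accession order and the labels share none between groups. The fit of the difference between sexes and part of the counts without the third miR-142 KO library were added after seeing the data. Replicates were separate mice, with 16267965 to 24687077 counts each.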

Other observations

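Genes close to the Nduf family but named otherwise were examined after their values were seen. AA467197, also called Nmes1, a paralog of Ndufa4 (chr2:122637887-122641076, mm10), was at 1.49, 2.19 and 5.88 CPM in WT and at 0.662, 0.747 and 1.33 CPM in miR-142 KO LSKs (lowest, median and highest library). No miR-142 KO library reached the lowest WT library. In CP CML it was at 1.32, 1.57 and 2.10 CPM and in BC CML at 1.23, 1.66 and 3.15 CPM, with overlap between these groups. It fell by 1.78 on the log2 scale in miR-142 KO against WT LSKs (SE 0.308, adjusted p = 8.49e-05) and was at 0.16 ± 0.297 in BC CML against CP CML LSKs (adjusted p = 0.705). The effect of miR-142 loss on AA467197 differed between CML and normal LSKs by log2 1.94 (adjusted p = 0.0118). Its counts were low, at 15 to 132 per library.

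Gm15694 was examined as a possible copy of Ndufa7, but 0 read-length windows of the Ndufa7 transcript occur in another annotated gene. It was at 0.477 CPM at the median of WT and 0.914 CPM at that of CP CML LSKs. Its log2 fold change was 0.90 there (adjusted p = 0.00534 by edgeR) and 0.94 in BC CML against miR-142 KO (adjusted p = 0.00388). It did not pass in the 2 comparisons of miR-142 (adjusted p = 0.257 and 0.369). The counts were 7 to 37 per library.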
